A study of Homo sapiens with 12 samples.

Results

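The genes described here encode proteins of the extracellular matrix: the chains of collagens and laminins, the thrombospondins, fibulins and fibrillins, and the glycoproteins and proteoglycans fibronectin (FN1), SPARC, osteopontin (SPP1), versican (VCAN), nidogen 1 and 2 (NID1, NID2), perlecan (HSPG2), biglycan (BGN) and lumican (LUM). They were picked by gene symbol, under a rule that uses no measured value but was set with earlier results of these data known. The symbols taken were COL number A number, LAMA, LAMB or LAMC plus a number, THBS, FBLN or FBN plus a number, and the single genes just named. Of 20117 genes in the deposited table, 70 met this rule: 10 fibrillar collagen chains, 5 collagen IV chains, 25 other collagen chains, 11 laminin chains, 3 basement membrane linkers (the nidogens and perlecan), 4 thrombospondins, 6 fibulins and fibrillins, and 6 other glycoproteins and proteoglycans. A further 6 symbols of the gene-name list fit the rule and were not analysed here (COL2A1, COL4A3, COL9A1, COL26A1, LAMB4 and FBN3).

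RNA was sequenced from 2 human cell lines, each with and without low-density lipoprotein (LDL), with 3 libraries in each of the 4 groups. THP-1 is a monocytic leukaemia line, here matured with a phorbol ester (PMA) into cells like macrophages, and EA.hy926 is a hybrid of umbilical vein endothelial cells with the lung carcinoma line A549. Treated dishes of either line received native LDL, isolated from donors with cardiovascular disease, at 100 µg/mL for 24 h. Control dishes received the same serum-free medium without LDL, with penicillin and streptomycin. The THP-1 medium was RPMI-1640 and the EA.hy926 medium DMEM, and only THP-1 was labelled as PMA-induced. An effect of line therefore cannot be told apart from one of medium or of PMA. The labels call the libraries of a group biological replicates but do not say what was repeated, so the p-values speak for the spread among the 3 libraries, which may be technical.

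Depth ran from 4.32 to 11.0 M reads, and 1 read was worth 0.653 to 1.91 normalised counts, which limits the low values. The cells carried markers of their labelled type. All 8 macrophage markers reached a mean of 10 normalised counts in THP-1, while 7 of the 8 were listed at 0 in EA.hy926. All 8 endothelial markers reached it in EA.hy926 control libraries, although the receptor KDR stood at only 14.6 normalised counts. CDH5, TEK, KDR and ERG were listed at 0 in THP-1. The rest of that list was present in THP-1 control libraries, with means of 2050 for ENG, 1084 for PECAM1, 248 for TIE1 and 61.7 for VWF. Of the epithelial markers, taken because one parent of EA.hy926 is a carcinoma line, the keratins KRT7, KRT8 and KRT18 were present in EA.hy926 and listed at 0 in THP-1, while KRT19 and ELF3 were listed at 0 in EA.hy926. ELF3 had a mean of 34.0 in THP-1 control libraries, and EPCAM and CDH1 had no values. The fibroblast and smooth muscle markers DCN, LUM, COL1A2 and DES were listed at 0 in all 12 libraries. Others of that list were present. In EA.hy926 control libraries ACTA2 had a mean of 162, TAGLN of 35.1 and THY1 of 8.01. In THP-1 control libraries PDGFRA had a mean of 81.3, TAGLN of 34.1, COL1A1 of 23.4, PDGFRB of 10.99 and ACTA2 of 10.6. The signal recognition particle RNA RN7SL1 took 8.90% to 14.4% of EA.hy926 reads and 1.74% to 3.08% of THP-1 reads.

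Basement membranes, on which endothelial cells sit, are built from a laminin network and a collagen IV network, joined by nidogen and perlecan. Laminins are trimers of an alpha, a beta and a gamma chain, and collagens are trimers of alpha chains wound into a triple helix. Interstitial matrix rests on fibrils of collagens I, III and V, on collagen VI filaments and on fibronectin. Thrombospondins, SPARC and osteopontin are matricellular proteins, which are secreted into the matrix and act on cells there rather than as structural parts. In the artery wall, LDL particles are held by proteoglycans such as versican, biglycan and perlecan, and macrophages and endothelial cells both meet them there.

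The promoters of 5 members whose transcripts had a called log2 change of 1 or more in size with LDL in THP-1 are shown first. Among them is the promoter region that COL4A1 shares with COL4A2. They were picked after the values were seen, and members not shown, such as LAMB1, COL22A1 and THBS2, moved further than some of them. Windows from 250 bases before to 50 bases after the gene start came from RefSeq (GRCh38.p14), where 55 of the 70 genes matched, with 72 windows. They were searched on both strands for the GC box GGGCGG, for the CCAAT box, for the TATA element TATAAA and for the AP-1 element TGANTCA. In the sequences below, written 5′ to 3′ along the gene's strand, capitals mark every match on either strand, and neighbouring matches can overlap. COL7A1, COL5A3 and COL4A1 had higher transcript levels with LDL and VCAN and FBN2 had lower ones, as given further on. COL7A1 lies on the minus strand in chr3:48595280-48595579, COL5A3 on the minus strand in chr19:10010455-10010754, COL4A1 on the minus strand in chr13:110307108-110307407, VCAN on the plus strand in chr5:83471494-83471793 and FBN2 on the minus strand in chr5:128538196-128538495.
COL7A1: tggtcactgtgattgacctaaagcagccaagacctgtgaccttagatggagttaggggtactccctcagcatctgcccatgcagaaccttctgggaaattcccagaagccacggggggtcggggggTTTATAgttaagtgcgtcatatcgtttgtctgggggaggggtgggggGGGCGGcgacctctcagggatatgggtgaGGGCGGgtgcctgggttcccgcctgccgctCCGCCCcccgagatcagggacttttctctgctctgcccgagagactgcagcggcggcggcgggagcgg
COL5A3: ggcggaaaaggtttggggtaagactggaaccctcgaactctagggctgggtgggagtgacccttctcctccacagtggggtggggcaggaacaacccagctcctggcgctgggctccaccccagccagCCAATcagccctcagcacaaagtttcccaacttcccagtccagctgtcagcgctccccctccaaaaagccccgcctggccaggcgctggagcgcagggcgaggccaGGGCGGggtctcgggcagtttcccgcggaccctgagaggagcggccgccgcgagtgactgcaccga
COL4A1: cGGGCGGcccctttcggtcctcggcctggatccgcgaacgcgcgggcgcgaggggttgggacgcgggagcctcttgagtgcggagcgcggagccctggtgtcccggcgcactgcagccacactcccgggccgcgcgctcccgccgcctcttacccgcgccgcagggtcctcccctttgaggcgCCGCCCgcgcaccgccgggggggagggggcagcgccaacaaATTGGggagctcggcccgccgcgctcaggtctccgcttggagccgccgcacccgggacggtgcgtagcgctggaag
VCAN: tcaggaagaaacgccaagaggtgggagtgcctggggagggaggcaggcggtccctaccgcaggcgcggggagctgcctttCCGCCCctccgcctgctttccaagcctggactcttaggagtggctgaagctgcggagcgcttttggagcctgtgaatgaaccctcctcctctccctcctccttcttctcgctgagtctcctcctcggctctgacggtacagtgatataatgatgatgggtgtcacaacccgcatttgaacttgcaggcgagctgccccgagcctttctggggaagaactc
FBN2: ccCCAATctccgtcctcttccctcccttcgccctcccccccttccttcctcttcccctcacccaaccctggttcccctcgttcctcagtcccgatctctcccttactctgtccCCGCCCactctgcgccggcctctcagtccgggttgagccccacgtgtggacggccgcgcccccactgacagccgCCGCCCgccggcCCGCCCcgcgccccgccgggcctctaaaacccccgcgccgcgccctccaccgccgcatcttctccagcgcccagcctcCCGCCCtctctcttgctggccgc
All 5 windows held GGGCGG, with 3 matches in COL7A1, 1 in COL5A3, 2 in COL4A1, 1 in VCAN and 4 in FBN2. TATAAA occurred in COL7A1 alone, as TTTATA on the strand shown. CCAAT occurred in COL5A3, COL4A1 and FBN2, and none of the 5 held TGANTCA. Over all 35116 windows of the table, GGGCGG was in 45.0% and over the 72 member windows in 65.3%. For CCAAT the shares were 34.6% and 31.9%, for TATAAA 11.5% and 13.9%, and for TGANTCA 7.71% and 4.17%. The windows of COL4A1 and COL4A2 overlap by 226 bases on chromosome 13, because the genes start 127 bases apart on opposite strands.

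The first comparison set the levels of the matrix genes in the lines side by side, in control medium. The lines carried largely different sets of chains. Of the 70 genes, 37 reached a mean of 10 normalised counts in a group of EA.hy926 and 44 in a group of THP-1, and 26 did so in both. All 11 that reached it in EA.hy926 alone were listed at 0 in THP-1, and all 18 that reached it in THP-1 alone were listed at 0 in EA.hy926. A further 14 were at 0 in all 12 libraries, among them COL1A2 and COL3A1, chains of the main fibrillar collagens, the small proteoglycans BGN and LUM, and FBLN2, FBLN5 and FBLN7. NID2 stayed under a mean of 10. A 0 in this table does not show absence, since zeros often filled whole groups, and folds against such groups are left out.

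**Figure D1:**
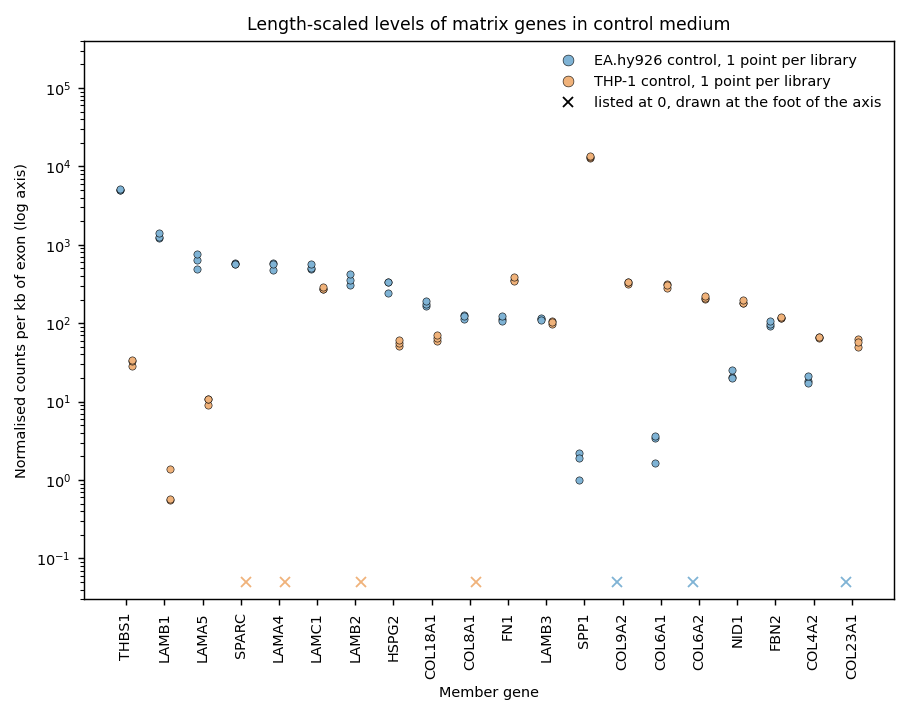
Normalised counts per kilobase of exon (log axis) in control medium for the 12 members with the highest mean in each line, 1 point per library, with crosses at the foot for genes listed at 0. THBS1 and LAMB1 were highest in EA.hy926 and SPP1 in THP-1, where SPARC, LAMA4, LAMB2 and COL8A1 were listed at 0.

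Levels of different genes were compared per kilobase of exon, as means with SD over 3 libraries. In EA.hy926 control libraries THBS1, the matricellular thrombospondin 1, stood first at 5036 ± 107 normalised counts per kilobase, followed by the laminin beta chain LAMB1 at 1307 ± 108. Both stood clear of every other member there. The next 4 were LAMA5 at 633 ± 142, SPARC at 570.4 ± 10.9, LAMA4 at 548.6 ± 56.97 and LAMC1 at 518 ± 46.3, whose order is within their spread. LAMB2 followed at 362 ± 58.2 and HSPG2 at 306 ± 55.6, which do not differ beyond their spread either. LAMA4 and LAMA5, each with LAMB1 and LAMC1, make up the laminins known for vascular basement membranes. By normalised counts, not scaled for length, THBS1 ranked 5th of all genes in EA.hy926 control libraries.

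THP-1 control libraries were led by SPP1, osteopontin, which macrophages are known to secrete, at 13214 ± 429 normalised counts per kilobase, and it ranked 7th of all genes there by normalised counts. FN1 followed at 363 ± 18.4, then COL9A2 at 329 ± 9.59, COL6A1 at 300.1 ± 16.3 and LAMC1 at 277 ± 10.7. The libraries of COL6A1 and LAMC1 overlapped in level, while those of FN1 stood above COL9A2. The collagen VI partner chain COL6A2 stood at 212 ± 11.5 and the linker NID1 at 186 ± 10.2. Collagen VI forms beaded filaments around cells, and COL6A2 and COL6A3 were listed at 0 in EA.hy926.

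**Figure D2:**
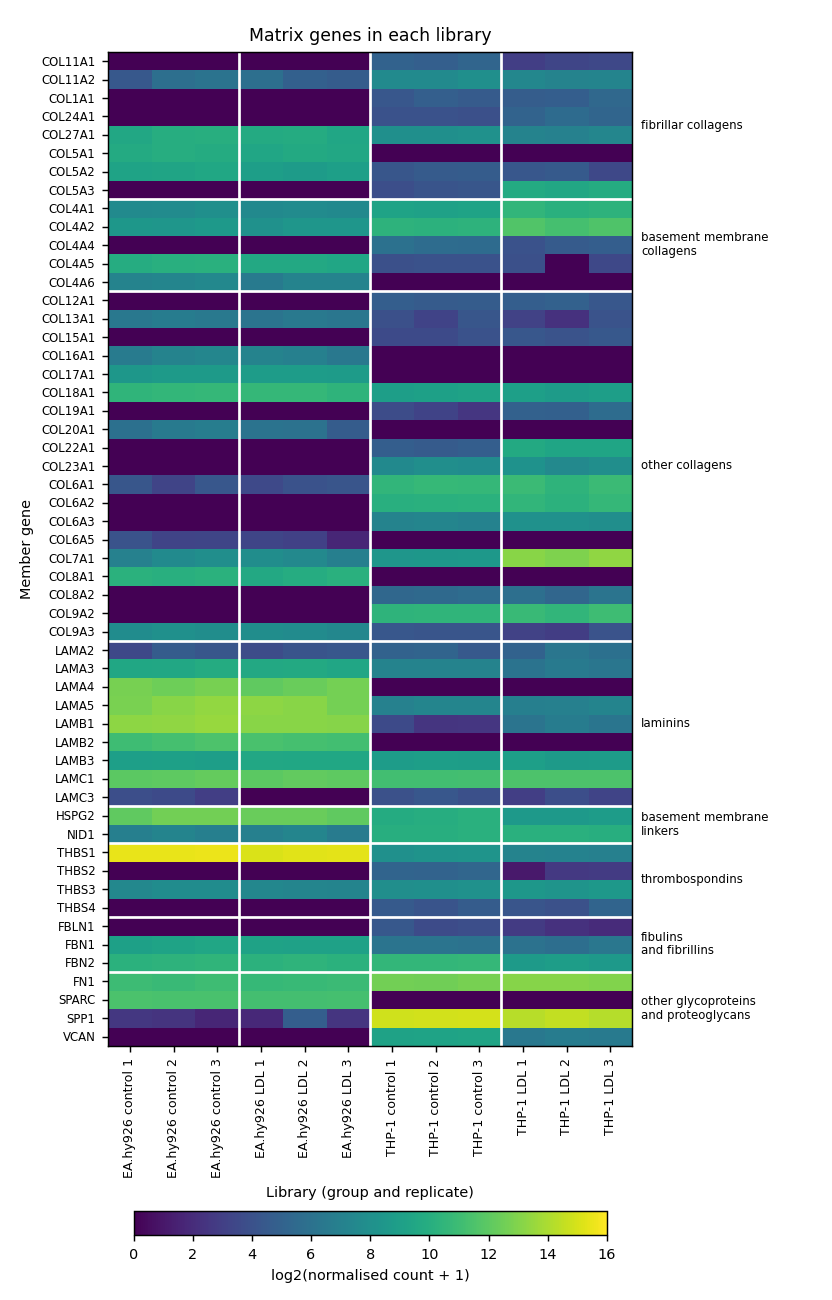
Heat map of log2(normalised count + 1) for 54 of the 55 members that reached a mean of 10 in a group, by gene class (down) and library (across), with dark cells at 0. Laminin genes were mostly higher in EA.hy926, and whole stretches of collagen genes were at 0 in either line.

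Between the control groups, 51 of 54 members tested differed at a Benjamini-Hochberg adjusted p under 0.05 in limma, 27 of them higher in THP-1 and 24 lower. Of all 16948 genes tested, 83.2% differed, 45.7% higher and 37.5% lower in THP-1. By class the split was uneven. No laminin chain was called higher in THP-1 and 7 of 10 were lower, 10 of 18 other collagen chains were higher and 8 lower, and 5 of 8 fibrillar chains were higher and 3 lower. Among the members compared, 28 were listed at 0 in a group, against 23.6% of all genes. These passed the filter through 1 line alone, so the direction of their calls was fixed in advance. They made up 17 of the calls higher in THP-1 and 11 of those lower. Among them were 8 higher and 5 lower other collagen chains. Fibrillar chains gave 4 higher and 1 lower, and laminin chains 3 lower. The class split therefore rests in part on zeros.

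LAMB1 stood at 10007, 10262 and 11641 normalised counts in the EA.hy926 control libraries and at 11.3, 4.57 and 4.70 in those of THP-1, a log2 difference of -10.50 ± 0.30 (SE; limma, adjusted p = 8.01e-08). The groups were far apart. Its partner LAMC1, the gamma chain of most laminins, was present in both lines, at 4079, 4189 and 4802 against 2268, 2288 and 2433, a log2 difference of -0.90 ± 0.07 (adjusted p = 2.41e-05). LAMB3, the beta chain of laminin 332, was at 534, 548 and 510.2 and 464, 496 and 483, and did not pass the test (log2 difference -0.14 ± 0.06, adjusted p = 0.0708), although the libraries did not overlap. LAMA2 and LAMC3 were the other members that did not pass it.

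THBS1 stood at 45757, 45382 and 47228 in EA.hy926 and 264, 303 and 311 in THP-1 (log2 difference -7.30 ± 0.07, adjusted p = 2.71e-09). SPP1 went the other way, at 5.10, 4.39 and 2.32 and 29551, 30999 and 31461 (log2 difference 12.65 ± 0.22, adjusted p = 8.38e-09). FN1 was at 1962, 1855 and 2123 and 6197, 6021 and 6641 and NID1 at 121, 149 and 118 and 1051, 1065 and 1161, both higher in THP-1 with no overlap. The collagen IV pair was also higher in THP-1, by a log2 difference of 1.46 ± 0.10 for COL4A1 and 1.81 ± 0.08 for COL4A2. SPARC, at 2812, 2747 and 2708 in EA.hy926, was listed at 0 in THP-1, and VCAN, at 584, 609.7 and 656 in THP-1, was listed at 0 in EA.hy926. The members together took 1.18% to 1.35% of normalised counts in EA.hy926 control libraries and 0.715% to 0.754% in THP-1 control libraries. Within that total, THBS1 alone made 43.7% to 47.8% in EA.hy926 and SPP1 57.3% to 58.3% in THP-1.

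The next comparison asked which matrix genes changed when THP-1 cells received LDL. The collagen chains COL7A1, COL5A3 and COL22A1 rose by log2 changes of 4.67, 5.62 and 4.80, the laminin chain LAMB1 and the collagen IV pair COL4A1 and COL4A2 also rose, and VCAN, FBN2, HSPG2, THBS1 and COL4A4 fell by at least 1. Of 44 members tested, 15 were higher and 13 lower with LDL (limma, adjusted p under 0.05), and the median log2 fold change was -0.00. Over all 16167 genes tested, 64.5% were called, 35.5% higher and 29.0% lower, with a median of 0.08, so the share of members called is close to the background. A log2 change of at least 1 was reached by 8 called members upward and 8 downward, against 27.8% of all genes in either direction. Of these members, LAMB1 and COL19A1 entered the test through LDL levels alone and could be called only higher. COL11A1, THBS2 and FBLN1 entered it through control levels alone and could be called only lower. The libraries of the groups did not overlap for 30 members, against 68.9% of all genes. Under quantile normalization the split of the members was 10 higher and 17 lower, against 4636 higher and 5728 lower over all genes, where the deposited scaling gave 5743 and 4682.

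Some values moved with the treatment in the same libraries. Totals were 7.19, 7.19 and 7.28 M normalised counts in control and 9.20, 9.17 and 9.09 M in LDL libraries. No test was run on shares of these totals. Small rises, such as those of LAMC1, COL6A2, COL9A2 and FN1 given below, therefore hold only for the scalings that called them. RN7SL1 took 1.74% to 2.07% of reads in control and 2.15% to 3.08% in LDL libraries. Its log2(normalised count + 1) was used as a covariate, chosen after seeing the data. With it, 10 members were called higher and 8 lower, while over all genes 3715 were called higher and 2702 lower. The summed level of the 10 fibroblast and smooth muscle markers went from 146 to 173 normalised counts in control libraries to 259 to 297 with LDL, with 5 of 10 at 0, among them DCN, LUM, COL1A2 and DES. Most of that rise was 1 gene, PDGFRA, at 81.3 ± 12.4 and 177 ± 13.6 (SD, n = 3). PDGFRB, at 10.99 ± 2.35 and 23.7 ± 2.38, and COL1A1, at 23.4 ± 4.14 and 31.3 ± 9.49, also had higher means with LDL. ACTA2 stood at 10.6 ± 1.24 and 9.79 ± 3.69 and TAGLN at 34.1 ± 5.03 and 32.9 ± 5.70. The summed macrophage markers went from 22692 to 24696 in control libraries to 28779 to 31614 with LDL, and the single markers went both ways. CSF1R, the receptor for the macrophage growth factor, stood at 9378 ± 656 and 17953 ± 834 and MS4A7 at 595 ± 37.5 and 1942 ± 94.8, but ITGAM, an integrin chain of myeloid cells, at 4876 ± 179.9 and 2497 ± 90.2 and FCGR1A at 163 ± 13.03 and 61.7 ± 6.43. The part of these in the results was not tested. In bulk RNA, a change in the number of cells that express a gene and a change per cell cannot be told apart.

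**Figure D3:**
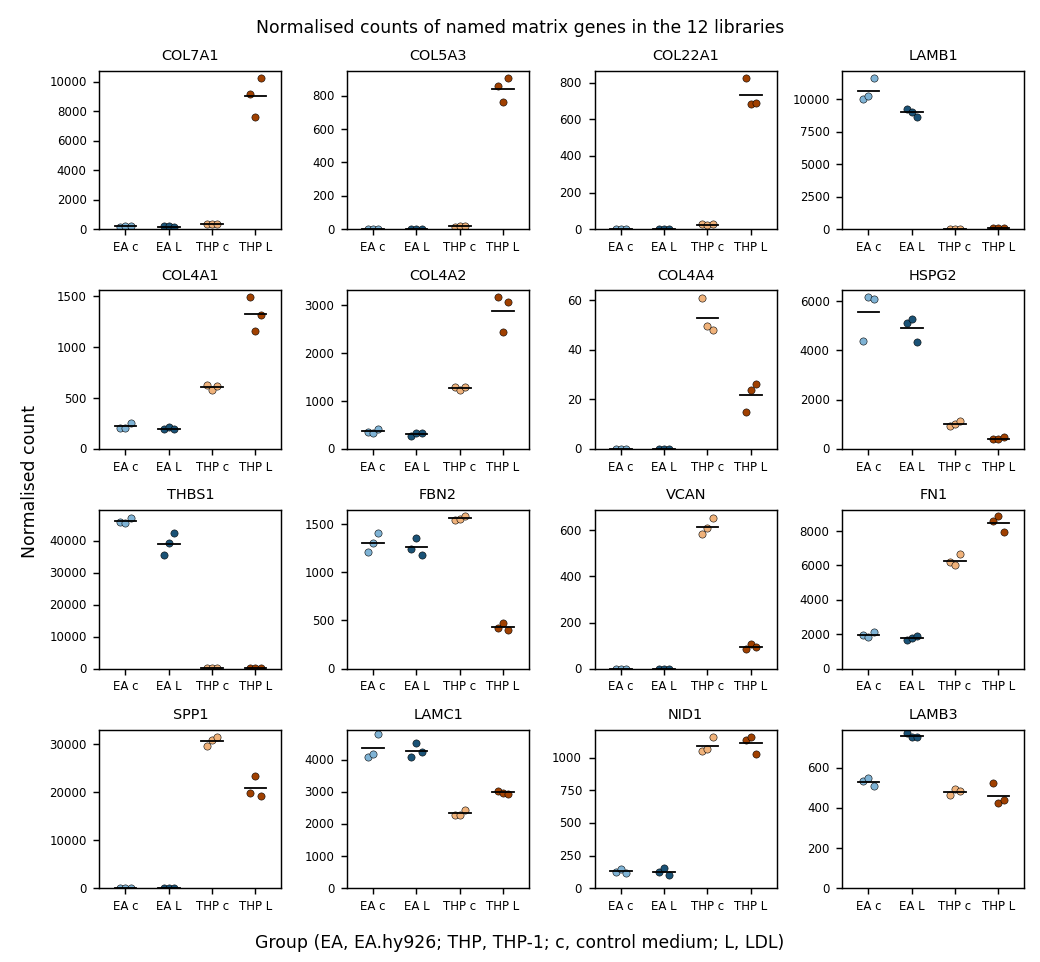
Normalised counts of 16 members in each of the 12 libraries (1 point per library, bar at the group mean, linear axes from 0 with a scale for each gene). COL7A1, COL5A3 and COL22A1 stood high in the 3 THP-1 LDL libraries, and VCAN and FBN2 were low there against THP-1 control; the FN1 difference in THP-1 turns its sign under quantile normalization.

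Among fibrillar collagens, 2 of 7 chains tested rose and 3 fell. COL5A3 (ENSG00000080573.7, chromosome 19, 9959561 to 10010471, minus strand, GRCh38 with GENCODE 29), a chain of collagen V, which helps to set fibril diameter, stood at 13.1, 16.99 and 18.8 normalised counts in control and 861, 762 and 905 in LDL libraries. Every LDL library stood far above every control library. The log2 fold change was 5.62 ± 0.15 (adjusted p = 4.34e-12), the largest rise among the members. Of the other collagen V chains, COL5A1 was listed at 0 in all THP-1 libraries. COL5A2 was low in THP-1, with means of 21.9 in control and 17.4 in LDL libraries. COL24A1, another fibrillar chain, rose from 15.7, 15.03 and 14.1 to 33.5, 47.3 and 36.5, by 1.32 ± 0.24. COL11A1, COL11A2 and COL27A1 fell, by log2 changes of -1.75 ± 0.28, -0.50 ± 0.12 and -0.84 ± 0.11. With an LDL mean of 8.78, COL11A1 entered the test through its control level alone and could be called only lower. The COL11A1 call was lost with the RN7SL1 covariate (adjusted p = 0.104), and COL11A2 was not called when the 12 libraries shared 1 fit (adjusted p = 0.284). COL1A1, the main chain of collagen I, was low and overlapped, at 19.2, 27.4 and 23.5 against 25.4, 26.3 and 42.3 (log2 0.38, 95% interval -0.20 to 0.97), and its partner COL1A2 was listed at 0. COL5A2 did not pass the test either, and the summed level of the class went from 544, 561 and 642 to 1251, 1141 and 1315 normalised counts.

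Collagen IV, the sheet-forming collagen of basement membranes, moved unevenly. COL4A1 (ENSG00000187498.16, chromosome 13, 110148963 to 110307233, minus strand) went from 624, 581 and 616 to 1494, 1159 and 1321 normalised counts, a log2 fold change of 1.12 ± 0.09 (adjusted p = 1.62e-07). COL4A2 (ENSG00000134871.19, chromosome 13, 110305812 to 110513209, plus strand), the partner chain read from the opposite strand, went from 1285, 1232 and 1298 to 3170.2, 2445 and 3061, by 1.18 ± 0.09 (adjusted p = 1.01e-07). For both genes the LDL libraries were all above the control libraries, with LDL replicate 2 lowest. The ratio of COL4A2 to COL4A1 counts was 2.09 ± 0.03 in control and 2.18 ± 0.12 in LDL libraries, while in EA.hy926 it was 1.65 ± 0.08 and 1.61 ± 0.15 (SD, n = 3). COL4A4, a chain of the mature network of kidney, lung and other specialised membranes, fell from 60.96, 49.7 and 47.9 to 15.03, 23.7 and 26.2, by a log2 change of -1.28 ± 0.25 (adjusted p = 0.000568). With the RN7SL1 covariate it fell short of the threshold (adjusted p = 0.412). COL4A5 stood at 13.9, 15.03 and 15.04 and 13.9, 0 and 10.2 and did not pass the test (adjusted p = 0.106).

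Of 14 other collagen chains tested, 6 rose and 1 fell. COL7A1 (ENSG00000114270.18, chromosome 3, 48564073 to 48595267, minus strand) encodes collagen VII, the anchoring fibril that ties epithelial basement membranes to the tissue below. It stood at 335, 352 and 363 in control and 9157, 7579 and 10234 in LDL libraries, a log2 fold change of 4.67 ± 0.09 or 25.4-fold (adjusted p = 2.97e-13). No library of the groups came near the other group. Its share of all members' counts went from 0.653% to 0.663% in control to 13.3% to 18.0% with LDL, where it ranked 92nd of all genes. Per kilobase, COL7A1 came next after SPP1 among the members with LDL, at 812 ± 121 normalised counts per kilobase.

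COL22A1, a collagen of tissue junctions such as that of muscle with tendon, went from 26.1, 23.5 and 26.3 to 824, 686 and 689.7 normalised counts, by a log2 change of 4.80 ± 0.12 (adjusted p = 3.14e-12). COL19A1, a fibril-associated chain, rose from 12.2, 8.49 and 4.70 to 30.1, 28.9 and 49.6, by 2.01 ± 0.36. Both were listed at 0 in EA.hy926. With a control mean of 8.46, COL19A1 entered the test through its LDL level alone and could be called only higher. Collagen VI moved less. COL6A3 went from 143, 156 and 137 to 273, 267 and 236 (log2 0.83 ± 0.11, adjusted p = 1.73e-05) and COL6A2 from 1092, 1128 and 1212 to 1498, 1231 and 1598 (log2 0.33 ± 0.09, adjusted p = 0.00648). The COL6A2 call was lost under quantile normalization (adjusted p = 0.439), without an intensity trend (0.0558), with the 12 libraries in 1 fit (0.059) and with the RN7SL1 covariate (0.562). COL6A1, the remaining chain of the trimer, did not pass the test, at 1506, 1672 and 1632 against 1887, 1361 and 1889.7 (log2 0.08, 95% interval -0.16 to 0.32). Without LDL replicate 2, its lowest library, COL6A1 was called higher by 0.24 (adjusted p = 0.00359), and TMM and quantile normalization turned its sign.

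COL9A2 and COL9A3, partner chains of the fibril-associated collagen IX, went in opposite directions. COL9A2 rose from 1341, 1405 and 1416 to 1848, 1489 and 2111 (log2 0.37 ± 0.10, adjusted p = 0.006), a call lost under quantile normalization (adjusted p = 0.42), without a trend (0.0577) and with the RN7SL1 covariate (0.415). COL9A3 went from 19.2, 17.6 and 17.9 to 8.09, 6.57 and 16.04 (log2 -0.87 ± 0.35, adjusted p = 0.0442), and that call was lost when any of 5 libraries was left out (adjusted p from 0.0891 to 0.124, all but LDL replicate 3), with the replicate block (0.0512), with no filter (0.0604), with DESeq2 (0.138) and with the RN7SL1 covariate (0.511). COL18A1, whose cleaved end is endostatin, was at 509, 551 and 599.6 and 524, 436 and 507, with overlap (log2 -0.18, 95% interval -0.38 to 0.02), and was called lower under TMM, median-of-ratios and quantile normalization and with edgeR and DESeq2. COL8A2, COL12A1, COL13A1, COL15A1 and COL23A1 did not pass the test.

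Of 7 laminin chains tested, 3 rose and 1 fell. LAMB1 (ENSG00000091136.15, chromosome 7, 107923799 to 108003255, minus strand) went from 11.3, 4.57 and 4.70 to 71.7, 106 and 72.9 normalised counts, by a log2 change of 3.51 ± 0.33 (adjusted p = 9.82e-07). All LDL libraries were above all control libraries, and the LDL level was still far under the 10636 ± 879 of EA.hy926 control libraries (SD, n = 3). With a THP-1 control mean of 6.86, LAMB1 entered the test through its LDL level alone and could be called only higher. LAMC1 went from 2268, 2288 and 2433 to 3023, 2971 and 2944, without overlap, by 0.36 ± 0.06 (adjusted p = 0.000138), and was not called under quantile normalization (log2 0.01, adjusted p = 0.92) or with the RN7SL1 covariate (0.0804). LAMA2, the alpha chain of muscle laminin, went from 31.4, 35.3 and 20.7 to 31.2, 77.5 and 59.8, and although it passed the test (adjusted p = 0.0285) the groups overlapped. That call was lost without control replicate 1 or 3 or LDL replicate 2 or 3 (adjusted p from 0.051 to 0.133), under quantile normalization (0.0904), with no filter (0.126), with no trend (0.0846) and with the 12 libraries in 1 fit (0.0618). LAMA3, the alpha chain of laminin 332, fell from 140.2, 140.5 and 140.0 to 67.1, 97.2 and 77.3, by a log2 change of -0.81 ± 0.15 (adjusted p = 0.000404; 0.444 with the RN7SL1 covariate). Its partner LAMB3 stood at 464, 496 and 483 and 524, 423 and 439, with overlap (log2 -0.06, 95% interval -0.26 to 0.13). LAMA5 and LAMC3 did not pass the test, and LAMA4 and LAMB2 were listed at 0 in both THP-1 groups.

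The linkers of the basement membrane parted. HSPG2, perlecan, a large heparan sulphate proteoglycan, went from 915, 1001 and 1117 to 404, 385 and 464, a log2 change of -1.27 ± 0.09 (adjusted p = 7.64e-08). NID1, which binds laminin to collagen IV, stood at 1051, 1065 and 1161 and 1138, 1162 and 1029, with overlap (log2 0.02, 95% interval -0.13 to 0.18). Its sign turned under TMM and median-of-ratios scaling, and under quantile normalization it was called lower, at -0.20 (adjusted p = 0.0222).

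Of the 4 thrombospondins 1 rose and 2 fell. THBS1, an activator of latent TGF-beta and a ligand of CD36 and CD47, fell from 264, 303 and 311 to 145, 137 and 127, by a log2 change of -1.10 ± 0.11 (adjusted p = 1.32e-06). THBS2 fell from 34.8, 33.3 and 38.5 to 1.16, 5.26 and 5.83 (log2 -3.01 ± 0.42), a call lost with the RN7SL1 covariate (adjusted p = 0.252). THBS3 rose from 242, 246 and 271 to 359.6, 307 and 370.4 (log2 0.45 ± 0.10; adjusted p = 0.0014, and 0.326 with that covariate). The groups did not overlap for any of these, and THBS4 did not pass the test.

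Of 3 fibulins and fibrillins tested, 2 fell. FBN2, fibrillin 2, a microfibril protein known mainly from development, fell from 1546, 1549 and 1586 to 425, 473 and 398, a log2 change of -1.85 ± 0.07 (adjusted p = 2.38e-10). The groups did not overlap. FBN1, the adult fibrillin, overlapped at 69.7, 71.9 and 65.8 and 63.6, 53.9 and 81.7 (log2 -0.08, 95% interval -0.47 to 0.31). FBLN1, fibulin 1, fell from 20.03, 11.8 and 13.2 to 5.78, 3.94 and 2.92, by -1.62 ± 0.38. With an LDL mean of 4.21, FBLN1 entered the test through its control level alone and could be called only lower.

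The 3 other glycoproteins and proteoglycans tested all passed the test. VCAN (ENSG00000038427.16, chromosome 5, 83471465 to 83582303, plus strand), versican, a chondroitin sulphate proteoglycan, fell from 584, 609.7 and 656 to 85.6, 105 and 94.8, a log2 change of -2.69 ± 0.10 or 6.44-fold (adjusted p = 1.50e-10). Every LDL library was below every control library. SPP1 fell from 29551, 30999 and 31461 to 19844, 23469 and 19129, by -0.56 ± 0.08 (adjusted p = 5.91e-05), while still leading the members. The SPP1 call was lost with no filter on low values (adjusted p = 0.107), with the 12 libraries in 1 fit (0.399) and with the RN7SL1 covariate (0.109). FN1, which cells assemble into fibrils through integrins, rose from 6197, 6021 and 6641 to 8563, 8868 and 7952 (log2 0.43 ± 0.07, adjusted p = 8.52e-05), but under quantile normalization it was called lower, at -0.25 (adjusted p = 0.00175). That scaling moved the median of all genes by -0.16, and relative to the median FN1 stood at 0.35 with the deposited scaling and -0.17 with quantile normalization. With the RN7SL1 covariate the FN1 rise was not called (0.38, adjusted p = 0.0585).

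**Figure D4:**
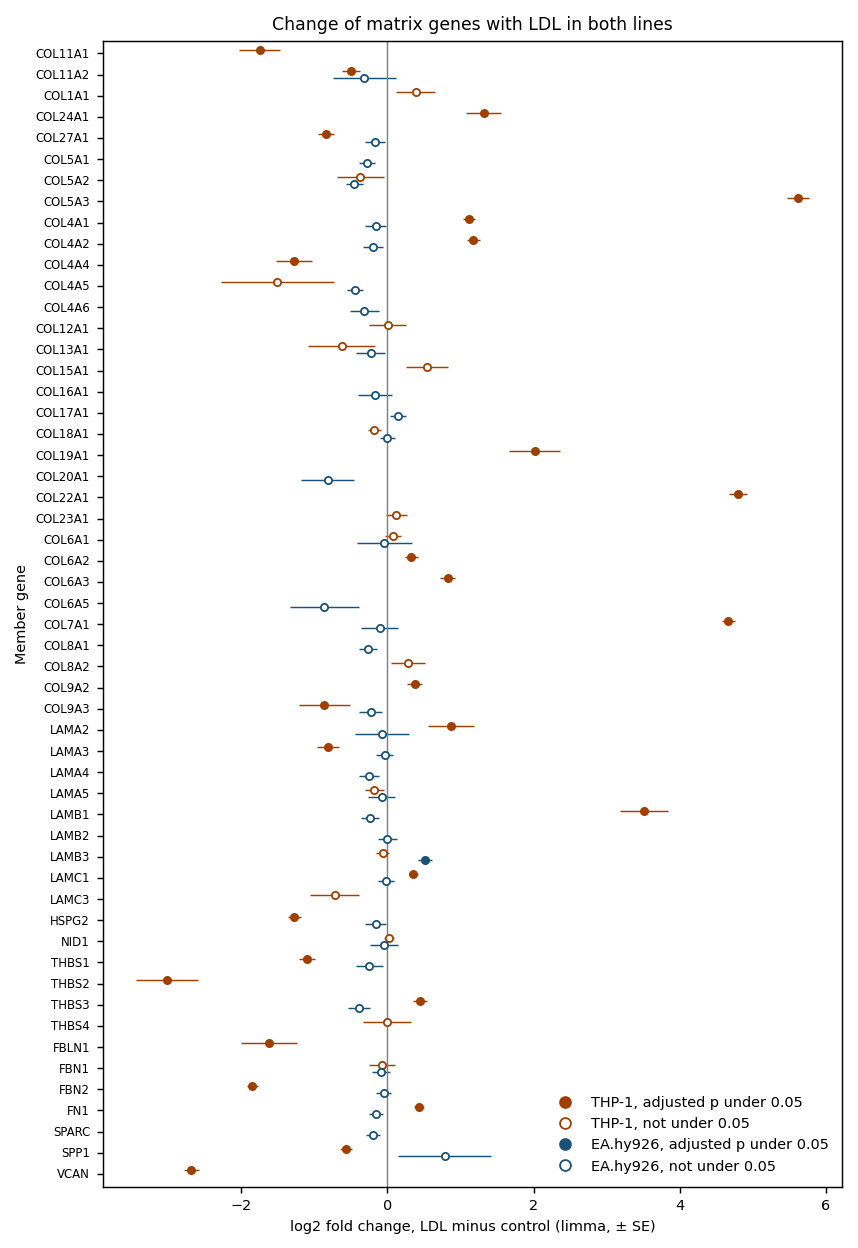
Log2 fold change with LDL (limma, ± SE) for the members tested in THP-1 (brown) and EA.hy926 (blue), filled where the adjusted p was under 0.05; LAMC3 in EA.hy926 is left out because it was listed at 0 with LDL, and 1 further member is not shown. THP-1 points spread from -3.01 for THBS2 to 5.62 for COL5A3, with FN1 turning its sign under quantile normalization, and the 1 filled EA.hy926 point is LAMB3.

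The same question in EA.hy926 gave few changes. LAMB3, a chain of laminin 332, rose, and LAMC3 was listed at 0 in the LDL libraries. Of 37 members tested, LAMB3 was the 1 called higher and LAMC3 the 1 called lower (limma, adjusted p under 0.05), against 2.01% of 14202 genes (0.873% higher and 1.13% lower). LAMC3 entered the test through its control level alone and so could be called only lower. Of the 161 genes called lower, 142 were, like it, listed at 0 with LDL. Before adjustment, 7 members had an unadjusted p under 0.05. The median log2 fold change of the members was -0.17, and that of all genes 0.00. The libraries of the groups did not overlap for 10 members, against 16.4% of all genes. The members took 1.18% to 1.35% of normalised counts in control and 1.03% to 1.09% in LDL libraries.

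LAMB3 (ENSG00000196878.15, chromosome 1, 209614870 to 209652466, minus strand) stood at 534, 548 and 510.2 in control and 772, 754 and 751 in LDL libraries, a log2 fold change of 0.52 ± 0.10 (adjusted p = 0.0113). The groups did not overlap. The call was lost with the replicate block (adjusted p = 0.125), without a trend (0.111), with a mean of at least 50 required (0.0534), without control replicate 3 (0.0669) and without LDL replicate 2 (0.097). LAMA3, its alpha chain partner in laminin 332, did not pass the test, at log2 -0.03 (95% interval -0.29 to 0.22). The summed epithelial markers went from 10205 to 11069 normalised counts in control libraries to 12924 to 13099 with LDL, without overlap. KRT7 stood at 5457 ± 114 and 7136 ± 263, KRT18 at 4154 ± 418 and 4634 ± 211 and KRT8 at 1158 ± 108 and 1232 ± 9.19 (SD, n = 3), and their part in the LAMB3 result was not tested.

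LAMC3, a gamma chain of few tissues, was at 13.3, 10.97 and 6.96 in control libraries and listed at 0 in all 3 LDL libraries, where 3 reads were worth 3.97, 5.73 and 3.36 normalised counts. Of all genes tested, 1.32% were listed at 0 in a group. Without control replicate 1, the highest, LAMC3 fell under the mean needed for testing.

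Some of the most abundant members stood lower on average with LDL without passing the test, while LAMC1 and LAMB2 hardly moved (log2 -0.02 and -0.00). LAMA5 and LAMA4 were lower on average with overlap (log2 -0.08 and -0.25). THBS1 was at 45757, 45382 and 47228 and 35364, 39165 and 42410.0, with every LDL library lower (log2 -0.25, 95% interval -0.63 to 0.14, adjusted p = 0.657). LAMB1 was at 10007, 10262 and 11641 and 9279, 9044 and 8672, also without overlap (log2 -0.24, interval -0.49 to 0.02, adjusted p = 0.483). SPARC, a collagen-binding matricellular protein, was at 2812, 2747 and 2708 and 2370.3, 2378 and 2464, again without overlap (log2 -0.20, interval -0.39 to 0.00, adjusted p = 0.456). COL4A5 and COL5A2 came nearest the threshold among the rest, at log2 changes of -0.44 ± 0.11 (adjusted p = 0.0785) and -0.45 ± 0.12 (adjusted p = 0.0853). COL4A5 was called lower under TMM (adjusted p = 0.0494), quantile normalization, edgeR and DESeq2. RN7SL1 was highest in control replicate 1 (12.7% of reads) and LDL replicate 3 (14.4%), and 16 of 36 members, such as LAMA5, HSPG2 and COL7A1, were lowest of their group in both of these libraries, while 3 were highest in both (LAMA4, COL8A1 and SPARC). With the RN7SL1 covariate, 5 members were called lower (LAMA4, COL8A1, COL4A5, COL5A2 and LAMC3). Calls over all genes went from 161 to 316 lower and from 124 to 387 higher.

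Other basement membrane and matrix genes overlapped between the EA.hy926 groups. COL4A1 stood at 202, 208 and 254 and 191, 210.1 and 191 (95% interval of the log2 change -0.47 to 0.16) and COL4A2 at 351, 336 and 406 and 277, 342 and 336 (-0.48 to 0.09). LAMC1 was at 4079, 4189 and 4802 and 4086, 4523 and 4227 (-0.25 to 0.21), and HSPG2 at 4385, 6149.7 and 6105 and 5125, 5290.5 and 4333 (-0.47 to 0.15). COL7A1, which rose in THP-1, was at 131, 201 and 241 and 225, 187 and 119.8 (-0.66 to 0.44). None of these intervals reaches a change of 1 on the log2 scale.
FN1 stood at 1962, 1855 and 2123 and 1655, 1771 and 1891 (95% interval -0.38 to 0.06), COL18A1 at 1411, 1514 and 1619.9 and 1605, 1589 and 1350.3 (-0.23 to 0.23), and FBN1 at 537, 632 and 705 and 604, 573 and 573 (-0.35 to 0.17). NID1 was at 121, 149 and 118 and 123, 155 and 102 (-0.47 to 0.38). COL6A1 was low, at 18.4, 8.77 and 19.7 and 10.6, 15.3 and 17.9 (-0.87 to 0.78). SPP1 stood at 5.10, 4.39 and 2.32 and 2.65, 26.7 and 4.48 (-0.61 to 2.17), an interval wide enough to hold a change of 1 on the log2 scale. COL1A1, COL6A2 and VCAN were listed at 0.

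Whether the response to LDL differed between the lines was tested with an interaction term over the 12 libraries, for the 26 members that reached a mean of 10 in either group of both lines. In 14 of them it differed, with 8 changes higher in THP-1 than in EA.hy926 and 6 lower (limma, adjusted p under 0.05), against 47.1% of 12534 genes, 25.2% higher and 21.9% lower. COL7A1 differed most, its log2 change being 4.67 with LDL in THP-1 against -0.11 in EA.hy926, a difference of 4.78 ± 0.29 (adjusted p = 3.10e-10). LAMB1 followed, at 3.51 against -0.24, a difference of 3.75 ± 0.31 (adjusted p = 1.85e-08). In THP-1, LAMB1 reached the mean of 10 through its LDL level alone. LAMC3, also among the 8, reached that mean in both lines through control levels alone. It was listed at 0 in the EA.hy926 LDL libraries, on which its sign rests. COL4A1 and COL4A2 differed by 1.28 ± 0.16 and 1.37 ± 0.16. FBN2, HSPG2 and THBS1 had lower changes in THP-1, with differences of -1.80 ± 0.13, -1.11 ± 0.18 and -0.85 ± 0.13. LAMB3 differed by -0.58 ± 0.13 (adjusted p = 0.00161), with the rise in EA.hy926. For FN1 the difference of 0.59 ± 0.12 turned to -0.03 under quantile normalization.

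Genes that receive, fold or resemble the members were taken from 4 lists. Over all genes tested, 64.5% were called with LDL in THP-1, 35.5% higher and 29.0% lower, and 2.01% in EA.hy926. Of 22 matrix receptors tested in THP-1, 15 were higher and 5 lower with LDL, which is 90.9% (median log2 0.87, against 0.08 over all genes). Among 20 in EA.hy926 none was called, with 4 at an unadjusted p under 0.05 in limma. CD44, a receptor for hyaluronan and osteopontin, went from 1116 ± 67.9 to 8089.8 ± 485 normalised counts (SD, n = 3; log2 2.86 ± 0.07). ITGB3, the beta chain of the integrin that binds osteopontin and fibronectin, went from 27.2 ± 2.56 to 647 ± 77.1. ITGA1, the alpha chain of a collagen and laminin receptor, went from 85.97 ± 3.98 to 691 ± 42.5, and ITGB8, a beta chain that binds latent TGF-beta, from 95.8 ± 7.09 to 706 ± 31.8.

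Collagen chains are modified and trimmed before they assemble. Of 22 genes of collagen folding, export and processing tested in THP-1, 11 were higher and 6 lower (median log2 0.51). This is 77.3% called, against 64.5% of all genes. P3H2, a prolyl 3-hydroxylase known to act on basement membrane collagens, went from 23.9 ± 5.66 to 3487 ± 277, which is 7.15 ± 0.14 on the log2 scale (adjusted p = 2.49e-13). P4HA2, a chain of prolyl 4-hydroxylase, went from 167 ± 13.7 to 507 ± 48.6. CRTAP, a partner of prolyl 3-hydroxylase 1, fell from 1468 ± 42.9 to 520.2 ± 68.00, and LOXL4, a crosslinking enzyme of the lysyl oxidase family, from 516 ± 27.8 to 47.5 ± 25.8. In EA.hy926, 1 of 23 was called, against 2.01% of all genes: LOX, lysyl oxidase, rose from 232 ± 6.28 to 361 ± 31.4 (log2 0.63 ± 0.12, adjusted p = 0.0138).

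Of 22 matrix glycoproteins and proteoglycans outside the rule, 8 were higher and 9 lower in THP-1 (median log2 -0.25), 77.3% against 64.5% of all genes. None of 23 was called in EA.hy926, against 2.01% of all genes, with 5 at an unadjusted p under 0.05 in limma. AGRN, agrin, a basement membrane heparan sulphate proteoglycan, rose from 5663 ± 506 to 15961 ± 2628, and EMILIN2, an elastic fibre glycoprotein, from 2112 ± 134 to 4385 ± 247. MMRN2, an endothelial matrix glycoprotein, fell from 145 ± 14.4 to 4.75 ± 1.84. CCN2, a matricellular target of TGF-beta, rose from 21.1 ± 4.14 to 104 ± 7.41. Of 15 genes of the TGF-beta pathway and its targets, 8 were higher and 6 lower in THP-1, 93.3% against 64.5% of all genes. None of 13 was called in EA.hy926, against 2.01% of all genes, with 2 at an unadjusted p under 0.05 in limma. The feedback inhibitors SMAD7 and SKIL rose, from 462 ± 20.9 to 1702 ± 198 and from 405 ± 49.2 to 1298 ± 121, as did the corepressor TGIF1, while the receptor TGFBR2 fell from 1074 ± 10.1 to 429 ± 28.9.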

How the data were processed

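RNA of the 12 libraries was isolated with the SKYEasy Fast Tissue/Cell Kit and prepared with the VAHTS Universal V8 kit, per the labels' protocols. The submitters' processing notes list the tools FastQC, MultiQC, STAR, HTSeq and DESeq2, with GRCh38 as build. Not given in the sources used here were tool versions, the annotation, strandedness and filters; reads of overlapping antisense genes therefore cannot be told apart. The deposited table holds a signal, read counts per gene scaled by the authors with a size factor for each library. This follows from the values, of which 100% were whole multiples of a per-library step (tolerance 0.001), so that reads could be recovered. Replicates were farther apart than sampling noise, at a chi-square per degree of freedom of 1.85 to 18.5, and none was counted as a duplicate.

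Symbols came from a gene-name list that matched 20104 of 20117 identifiers, and coordinates and exon lengths from GENCODE 29. The values of 1 member are not reported here, although it entered the fits and the counts. The members and gene lists were chosen with earlier results of these data known. The test was limma 3.58.1 in R 4.3.3, two-sided and with an intensity trend, on log2(value + 1), for each line by itself and for genes whose mean reached 10 in either group. Fold changes on this scale understate the change of low genes. P-values were adjusted after Benjamini and Hochberg over all genes tested, with a threshold of 0.05. The interaction used the 12 libraries. A design of 3 against 3 cannot go below an exact p of 0.1, so limma's pooled spread was used. The fits were tested on simulated data.

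Given with every library were members with a mean of at least 50, an adjusted p under 0.05 and a log2 change of at least 1, and a panel of FN1, SPARC, SPP1, THBS1, COL1A1, COL4A1, COL4A2, COL6A1, COL6A2, COL18A1, LAMB1, LAMC1, NID1, HSPG2, VCAN and FBN1 whatever their result. Other members whose call or overlap needed showing were given in the same way. Up to 4 genes with the smallest adjusted p were named per list and line. Alternatives were other scalings (TMM, median of ratios, quantile), pseudocounts and filters, no trend and a replicate block. Further ones were all 12 libraries in 1 fit, edgeR 4.0.16 and DESeq2 1.42.0 on recovered reads, and each library left out. The last, chosen after seeing the data, took log2(normalised count + 1) of RN7SL1 as a covariate. The edgeR test on recovered reads called 10612 genes in THP-1 and 294 in EA.hy926. The floor of 3 reads covers counting error only, since no source used here mentions molecular identifiers.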

Additional observations from a re-analysis of the deposited data

Results flagged for a closer look

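The response to LDL differed between the lines for 14 of 26 members tested, by the interaction term over the 12 libraries (limma, adjusted p under 0.05), a share near the 47.1% of 12534 genes called. Every difference below is the log2 change in THP-1 minus that in EA.hy926. Changes were higher in THP-1 for COL7A1 (4.78), LAMB1 (3.75), COL4A2 (1.37), COL4A1 (1.28), THBS3 (0.84), FN1 (0.59) and LAMC1 (0.38). The collagen VII chain had log2 changes of 4.67 and -0.11 in the lines, and the laminin beta chain LAMB1 3.51 and -0.24. In THP-1, LAMB1 reached the mean needed for testing through its LDL level alone. LAMC3 also differed (2.75), and it was listed at 0 in the EA.hy926 LDL libraries, so this size depends on the pseudocount. In both lines LAMC3 reached the mean needed for testing through control levels alone, so the sign of its difference rests on those zeros. Its own change in THP-1 was downward and not called (-0.72). THBS3, a thrombospondin of skeletal tissue, had changes of 0.45 in THP-1 and -0.39 in EA.hy926, of which only the THP-1 change passed its own test. Changes were lower in THP-1 for FBN2 (-1.80), HSPG2 (-1.11), THBS1 (-0.85), LAMA3 (-0.78), COL27A1 (-0.67) and LAMB3 (-0.58). LAMA3 and LAMB3, partner chains of laminin 332, had changes of -0.81 and -0.06 in THP-1 and -0.03 and 0.52 in EA.hy926. Line, medium and PMA cannot be told apart in these differences. Under quantile normalization the differences of FN1, LAMC1 and LAMC3 were not called, at -0.03, 0.16 and 1.07.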

How the results depend on the processing

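Over the members called in THP-1 and all alternatives, 489 values kept their direction and their side of the threshold, 36 kept the direction and lost the call, and 1 reversed. The members called lower in THP-1 went from 13 to 8 with the RN7SL1 covariate, and those of all genes from 4682 to 2702. In EA.hy926 the members called higher went from 1 to 0 with a mean of at least 50, with no trend and with the replicate block, and ranged from 0 to 1 over libraries left out. Those called lower went from 1 to 2 under TMM, quantile normalization, edgeR and DESeq2, to 0 with a mean of at least 50 and to 5 with the RN7SL1 covariate, and ranged from 0 to 2 over libraries left out. For the difference between the lines, members called higher went from 8 to 5 under quantile normalization and to 13 with no filter, and those called lower from 6 to 11 with no filter. Members higher in THP-1 in control medium went from 27 to 16 with a mean of at least 50, where 39 members were tested. Except where fewer genes or samples entered, the cause was not tested.

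Some signs turned. FN1 in THP-1, called higher at 0.43, was called lower at -0.25 under quantile normalization, and its difference between the lines went from 0.59 to -0.033. The other values were not called with the deposited scaling. In THP-1, COL6A1 went to -0.019 under TMM, -0.19 under quantile normalization, -0.00455 with edgeR and -0.21 with the RN7SL1 covariate. NID1 went to -0.077 under TMM, -0.048 under median of ratios, -0.20 under quantile normalization (there called lower), -0.074 with edgeR, -0.044 with DESeq2 and -0.030 with the covariate, and ranged from -0.012 to 0.075 over libraries left out. FBN1 ranged from -0.24 to 0.060 over libraries left out. In EA.hy926, COL18A1 went to 0.047 and NID1 to 0.044 with the covariate. Over libraries left out, COL18A1 ranged from -0.052 to 0.078, COL6A1 from -0.39 to 0.15, LAMC1 from -0.069 to 0.049, NID1 from -0.20 to 0.098 and FBN1 from -0.19 to 0.0023.

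In their deviations from the group means, same-numbered libraries correlated at -0.11, -0.05 and 0.08 in THP-1 and -0.39, 0.01 and -0.35 in EA.hy926. With 3 libraries in each group, this check cannot show whether same-numbered samples were paired. With the replicate block 15 members were higher and 13 lower in THP-1, and 0 higher and 1 lower in EA.hy926. Low values are limited by depth, as 3 reads were worth 1.96 to 5.73 normalised counts.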
